A study of Mus musculus with 6 samples.

Results

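The 7 genes described here mark neurons that make the inhibitory transmitter GABA. They are Gad1, Gad2 and Slc32a1, which make and load GABA, the transcription factors Lhx6 and Dlx1, the calcium buffer Pvalb and the secreted neurexin ligand Nxph1. They were chosen by gene symbol, out of 14859 named genes on the array, and each had 1 transcript cluster, the unit for which the array reports a level. The samples were star pyramid neurons of layer 4 of the mouse visual cortex, at postnatal day 14, labelled with m-Citrin, dissociated and picked by hand with a glass pipette. Tetrodotoxin, a sodium channel blocker that silences the injected eye, had been injected for monocular deprivation at postnatal day 12 to 13 and again at day 13 to 14. All animals of both groups were deprived in this way, and the groups are the hemispheres: 3 arrays from the deprived and 3 from the non-deprived hemisphere, so the control is the other hemisphere and not an untreated animal. The letter after the replicate number differs between the groups in the labels, so that side, if the letter marks it, cannot be told apart from deprivation. Nothing in the labels names the strain, the promoter that drives m-Citrin, the number of cells picked or the animal behind each sample. RNA, about 0.3 to 1 ng per sample, was amplified in 2 rounds before labelling.

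GABA is made from glutamate by 2 glutamate decarboxylases. GAD67, encoded by Gad1, supplies most of the transmitter pool and is found throughout the cell, whereas GAD65, encoded by Gad2, sits at nerve terminals. VGAT, encoded by Slc32a1, then pumps GABA into synaptic vesicles. Cortical interneurons are born in the ventral forebrain, where Dlx factors specify the GABAergic fate, and Lhx6 directs the lineage that gives rise to the parvalbumin and somatostatin classes. Star pyramid neurons are glutamatergic, and their textbook profile lacks these genes.

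All values are the authors' log2 levels, so that a difference of 1 is a doubling of signal. Clusters differ in brightness at equal RNA, and levels are therefore compared between arrays and not between genes. As a reference for genes expected silent in cortex, 801 olfactory and vomeronasal receptor genes had 95th percentiles between 5.38 and 5.725 on the 6 arrays. Gad2, Slc32a1, Lhx6 and Nxph1 were above that percentile on 6 of 6 arrays, Gad1 and Pvalb on 5 and Dlx1 on 4. Of 18 measured excitatory neuron markers, 10 were above it on all 6 arrays, while Neurod2, Emx2, Fezf2 and Foxp2 were above it on 0. Among the 10 was Slc17a7, the vesicular glutamate transporter VGLUT1. It was at 8.92 to 9.04 on non-deprived arrays 2 and 3, 9.44 on non-deprived array 1 and 9.92 to 10.345 on the deprived arrays. The layer 4 factor Rorb, also among the 10, was at 6.83 to 8.57. Transcripts that mark GABAergic neurons were measured beside those of the labelled type. From pooled cells, a change in the number of GABAergic cells and a change in RNA per cell cannot be told apart.

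Over all genes, a pair of arrays (non-deprived 2 and 3) differed from the remaining 4. Their upper quartiles over all named genes were 6.43 and 6.55, against 7.01 to 7.15 elsewhere, and 2769 and 2900 genes exceeded a level of 7, against 3727 to 3960. Group differences of the members and of the interneuron lists are therefore given with and without these arrays.

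The start regions of 5 members are shown because these genes carry the pairings described below: Gad1 with Gad2, Dlx1 with Nxph1, and Slc32a1 apart from the decarboxylases. Each runs from 250 bases before the transcription start to 50 after it, 5′ to 3′ on the gene's strand, from RefSeq on GRCm38.p6: Gad1 at chr2:70561879-70562178 (plus strand), Gad2 at chr2:22622077-22622376 (plus), Slc32a1 at chr2:158610508-158610807 (plus), Dlx1 at chr2:71529195-71529494 (plus) and Nxph1 at chr6:8949769-8950068 (plus). Capitals mark the matches of the motifs searched.
Gad1: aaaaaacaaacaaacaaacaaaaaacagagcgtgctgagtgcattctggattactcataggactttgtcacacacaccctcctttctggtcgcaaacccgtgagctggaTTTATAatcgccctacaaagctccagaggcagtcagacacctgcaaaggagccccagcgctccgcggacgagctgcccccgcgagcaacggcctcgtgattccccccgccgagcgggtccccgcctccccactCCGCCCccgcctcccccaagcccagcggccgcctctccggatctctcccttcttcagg
Gad2: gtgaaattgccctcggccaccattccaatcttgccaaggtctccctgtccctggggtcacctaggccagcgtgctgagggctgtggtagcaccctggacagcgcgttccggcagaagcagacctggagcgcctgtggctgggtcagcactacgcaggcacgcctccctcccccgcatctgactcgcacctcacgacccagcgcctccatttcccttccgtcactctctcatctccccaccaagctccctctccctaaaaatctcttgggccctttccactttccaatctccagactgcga
Slc32a1: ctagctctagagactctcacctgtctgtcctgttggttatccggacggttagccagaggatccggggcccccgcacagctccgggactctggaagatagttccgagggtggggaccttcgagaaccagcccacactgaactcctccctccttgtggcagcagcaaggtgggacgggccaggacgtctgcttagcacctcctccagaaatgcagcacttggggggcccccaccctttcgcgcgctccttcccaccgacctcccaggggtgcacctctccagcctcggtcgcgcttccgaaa
Dlx1: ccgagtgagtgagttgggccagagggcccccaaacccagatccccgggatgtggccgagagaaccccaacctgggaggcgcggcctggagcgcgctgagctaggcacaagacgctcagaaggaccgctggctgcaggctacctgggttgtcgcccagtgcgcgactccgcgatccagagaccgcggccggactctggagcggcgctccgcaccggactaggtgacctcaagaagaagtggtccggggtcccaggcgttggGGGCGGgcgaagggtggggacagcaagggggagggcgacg
Nxph1: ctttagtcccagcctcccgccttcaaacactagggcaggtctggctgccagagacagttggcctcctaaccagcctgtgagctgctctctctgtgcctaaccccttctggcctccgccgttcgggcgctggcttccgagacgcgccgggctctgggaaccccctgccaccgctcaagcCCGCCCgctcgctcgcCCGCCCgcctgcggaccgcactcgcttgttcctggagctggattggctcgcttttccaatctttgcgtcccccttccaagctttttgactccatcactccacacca

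The motifs searched on both strands, with the share of all 32851 RefSeq start regions of this length that hold each, were the GC box GGGCGG (35.7%), the TATA box TATAAA (13.6%), the E-box CACGTG (7.15%), the homeodomain core TAATTA (5.29%), the AP-1 motif TGACTCA (5.2%), the CRE TGACGTCA (1.79%) and the MEF2 motif (0.402%). The GC box was found in Gad1, 8 bases before the start, in Dlx1, from base 11 of the transcript, and in Nxph1, 72 and 56 bases before the start, all reverse complement except in Dlx1. Gad1 also held a TATA match 141 bases before the start. Gad2 and Slc32a1 held none of the 7. No start region of any member held TAATTA, which says only that these letters are not in these windows. All 7 members had a start region in the RefSeq table, with 3 alternative starts for Lhx6 and 2 for Pvalb. Of the 7 genes, 5 lie on mouse chromosome 2, where 18 genes separate Gad1 from Dlx1. RefSeq places other genes over Gad1 (Gad1os), Gad2 (Mir3967), Slc32a1 (Gm14204) and Dlx1 (Dlx1as), and whether their RNA adds to these clusters was not tested.

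The GABA-synthesising enzymes varied widely, and together. Gad1 (cluster 6877963) was at 7.78, 5.68 and 6.43 on non-deprived arrays 1, 2 and 3 and at 7.48, 7.04 and 7.38 on deprived arrays 1, 2 and 3. Gad2 (cluster 6875582) was at 8.99, 5.98 and 6.34 on the non-deprived and at 8.87, 7.81 and 9.13 on the deprived arrays. For both enzymes non-deprived array 2 was lowest and non-deprived array 3 next, non-deprived array 1 lay among or above the deprived arrays, and the groups overlapped. Gad2 spanned 3.157 log2 units over the 6 arrays, a span reached by 5.76% of all genes, and Gad1 spanned 2.11 (18.8%). On non-deprived array 2 Gad1 was not above the 95th percentile of the receptor genes, 5.725.

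The vesicular transporter behaved otherwise. Slc32a1 (cluster 6882762) was at 6.56, 6.68 and 6.51 on the non-deprived arrays and at 6.28, 7.99 and 7.08 on the deprived arrays. Non-deprived arrays 2 and 3, lowest for the decarboxylases, were level with array 1 here, and the 2 extremes were deprived arrays 1 and 2, so the groups overlapped. Its SD over 3 arrays was 0.0864 for the non-deprived and 0.853 for the deprived group.

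The 2 transcription factors moved least. Lhx6 (cluster 6886075) was at 6.79, 6.06 and 6.24 on the non-deprived arrays and at 5.955, 6.31 and 6.81 on the deprived arrays. The groups covered almost the same interval, and the whole span of 0.852 was below the median span of all genes, 1.01. Dlx1 (cluster 6878021) was at 5.92, 5.68 and 4.93 on the non-deprived arrays and at 5.575, 6.17 and 6.17 on the deprived arrays. It was lowest on non-deprived array 3 and deprived array 1, and on non-deprived arrays 2 and 3 it was not above the 95th percentile of the receptor genes.

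Pvalb, a calcium buffer that marks fast-spiking basket and chandelier cells and whose level in cortex increases with age after birth, varied most. Its level (cluster 6837006) was 5.77, 3.76 and 6.335 on the non-deprived arrays and 5.604, 6.91 and 7.94 on the deprived arrays. Deprived array 3 was highest and non-deprived array 2 lowest. The value on non-deprived array 2 was below the 95th percentile of the receptor genes there, 5.725, so the span includes a level expected of silent genes. The span of 4.17 was reached by 1.38% of all genes, yet deprived array 1 lay below 2 of the non-deprived arrays. Nxph1 (cluster 6944039), a secreted ligand of alpha-neurexins, was at 10.625, 9.905 and 9.01 on the non-deprived arrays and at 9.82, 10.49 and 10.08 on the deprived arrays. Its groups overlapped, with non-deprived array 1 highest and non-deprived array 3 lowest.

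**Figure D1:**
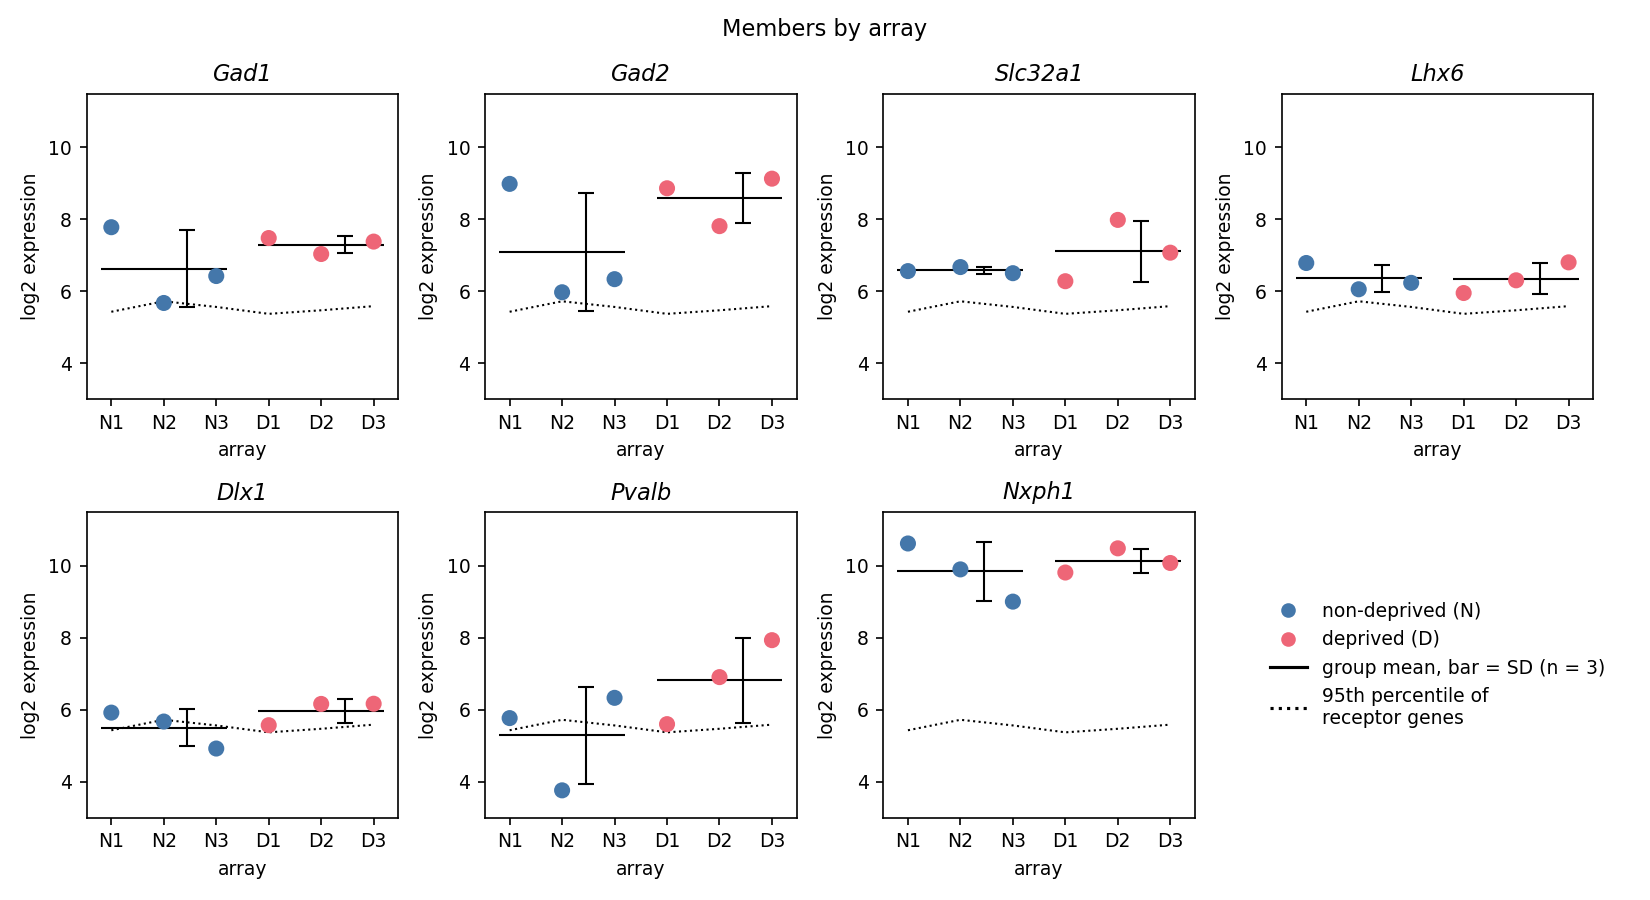
Level of each of the 7 genes (log2 expression, y axis) on each array (x axis, N non-deprived and D deprived, numbered by replicate). Points are arrays, horizontal lines group means with SD bars (n = 3) and the dotted line is the 95th percentile of 801 receptor genes. Gad1 and Gad2 are lowest on N2 and N3, Slc32a1 is highest on D2, and no gene has groups that do not overlap.

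The comparison of the hemispheres asks whether silencing the eye changes these transcripts. In limma, 0 of the 7 genes passed at an adjusted p of 0.05, as did 0 of all genes (0%), and 0 passed at an unadjusted p of 0.05, where 5.22% of all genes did. In 0 of the 7 the groups did not overlap, where 10.3% of all genes were separated (6.3% higher and 4.03% lower in the deprived group). A span of 2 or more over the 6 arrays was found in 3 of the 7, Gad1, Gad2 and Pvalb, and in 21.1% of all genes. The means of 6 of the 7 were higher in the deprived group, with a median log2 difference of 0.53. Of all genes 56.3% had a higher mean there, with a median of 0.05. Quantile normalization moved the median of all genes to -0.06 and median centring to -0.11, with 43.4% and 38.4% of all genes higher, and 6 of the 7 members were higher under either, with medians of 0.29 and 0.37. Excitatory neuron markers, described at the end, were also higher in 13 of 18. Without non-deprived arrays 2 and 3, only 3 of the 7 were higher, and 51.2% of all genes.

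The largest differences came with the widest intervals. Mean levels of Pvalb (± SD, n = 3) were 6.82 ± 1.17 with and 5.29 ± 1.35 without deprivation, which differ by 1.53 ± 0.83 (SE, log2 scale; 95% interval -0.46 to 3.51; limma adjusted p = 0.856). Gad2 was at 8.60 ± 0.70 against 7.10 ± 1.64, a difference of 1.503 ± 0.86 (-0.55 to 3.55; limma adjusted p = 0.856). Gad1 was at 7.30 ± 0.23 against 6.63 ± 1.07, a difference of 0.67 ± 0.56 (-0.68 to 2.02; limma adjusted p = 0.872). After quantile normalization the difference of Gad1 was 0.33 and that of Gad2 1.15. The sign of both decarboxylases turned without non-deprived arrays 2 and 3, to -0.38 for Gad2 and -0.48 for Gad1, while Pvalb was at 1.05.

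Slc32a1 differed by 0.53 ± 0.47 (SE; 95% interval -0.60 to 1.66; limma adjusted p = 0.877), by 0.16 after quantile normalization and by 0.0975 without deprived array 2. It was 0.55 without non-deprived arrays 2 and 3. Dlx1 differed by 0.46 ± 0.33 (-0.34 to 1.26; limma adjusted p = 0.856), which became 0.05 without non-deprived arrays 2 and 3, 0.29 when quantile normalized and 0.30 when median centred. Nxph1 differed by 0.28 ± 0.44 (-0.76 to 1.33; limma adjusted p = 0.933), by 0.18 after quantile normalization and 0.125 after median centring, by -0.13 without non-deprived array 3 and by -0.49 without non-deprived arrays 2 and 3. Lhx6 differed by -0.005 ± 0.35 (-0.84 to 0.83; limma adjusted p = 0.998), by -0.43 without non-deprived arrays 2 and 3 and by -0.30 when quantile normalized. Its interval leaves room for a change of less than a doubling either way, and the intervals of Gad2 and Pvalb leave room for much larger ones, so that no change and a sizeable one are both within the error.

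**Figure D2:**
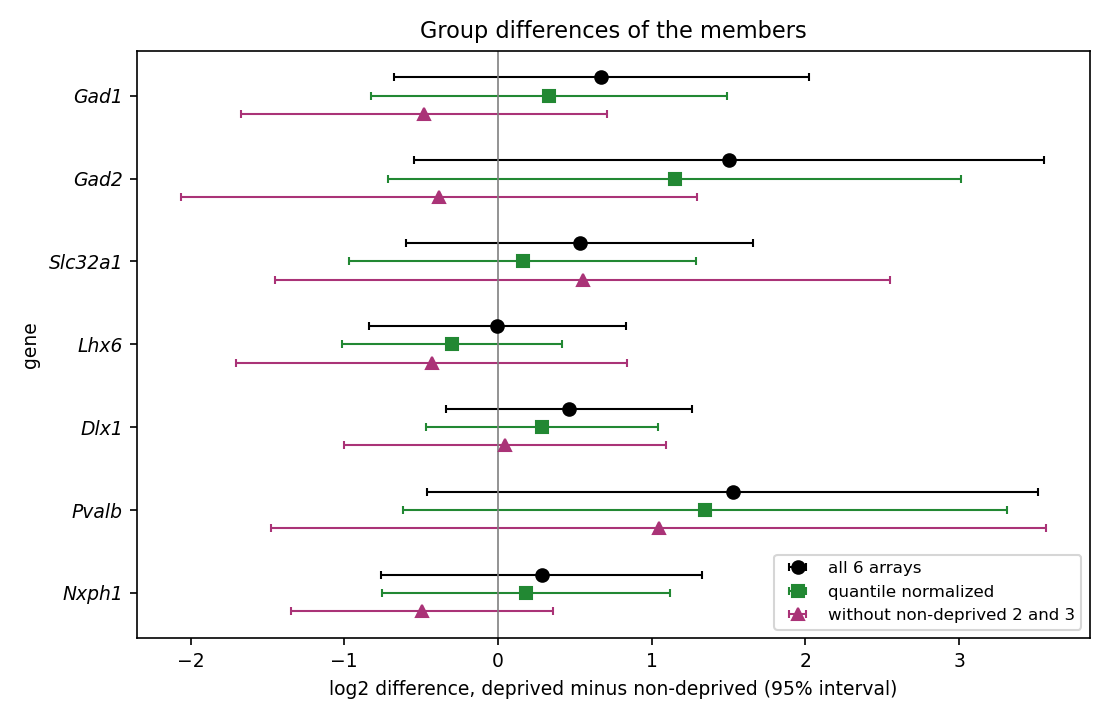
Log2 difference, deprived minus non-deprived (x axis), of each gene (y axis) with its 95% interval from limma, for 3 settings: all arrays as deposited, quantile normalized, and with non-deprived 2 and 3 left out. Every interval spans 0, and Gad1, Gad2 and Nxph1 change sign without those 2 arrays.

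The levels were then compared between genes over the 6 arrays. Arrays of the 2 groups may share animals, and the 2 non-deprived arrays named above differ from the rest, so the coefficients are a description. Gad1 and Gad2 had the highest Pearson r, 0.954 (exact permutation p = 0.00556; Spearman rho = 0.829, exact permutation p = 0.0583). Over the 21 pairs the Benjamini-Hochberg adjusted value for r was 0.117. Their r was 0.79 over the 4 arrays left without non-deprived arrays 2 and 3, which are also those farthest from the median of Gad1, 0.898 after quantile normalization and 0.949 with the group means removed. Leaving out any 1 array gave 0.948 to 0.971.

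Dlx1 and Nxph1 were next, with r = 0.892 (exact permutation p = 0.025, adjusted 0.263 over 21 pairs) and rho = 0.771 (exact permutation p = 0.103). Both genes were lowest on non-deprived array 3 and next lowest on deprived array 1. The r was 0.866 without the arrays farthest from the median of Dlx1 (non-deprived array 3 and deprived array 3), 0.789 after quantile normalization and 0.628 without non-deprived array 3 alone. None of the 21 pairs passed after adjustment, and 2 had an unadjusted exact permutation p under 0.05 for r and 0 for rho.

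Slc32a1 did not follow the enzymes that supply its substrate. Its r was 0.0249 with Gad1 (exact permutation p = 0.965; rho = -0.257, exact permutation p = 0.658) and 0.0449 with Gad2 (exact permutation p = 0.953; rho = 0.0857, exact permutation p = 0.919). After quantile normalization these were -0.611 and -0.541, and over the 4 arrays without non-deprived arrays 2 and 3 they were -0.844 and -0.805. Pvalb and Nxph1 were also unrelated in level, with r = 0.104 (exact permutation p = 0.856; rho = 0.257, exact permutation p = 0.658).

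All 21 coefficients were above 0, with a median of 0.514. Between all named genes the median r was 0.021 and 51.5% of pairs were above 0. Between the 7431 genes at or above the median of mean expression, to which all 7 members belong, it was 0.107, with 57.1% above 0. The positive sign was not a stable feature of the 21 pairs: after quantile normalization 13 were above 0 (median 0.109), after median centring 18 (median 0.28) and without non-deprived arrays 2 and 3 again 13 (median 0.352). The pairs Gad1 with Gad2 and Dlx1 with Nxph1 stayed at or above 0.53 under each of these settings.

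**Figure D3:**
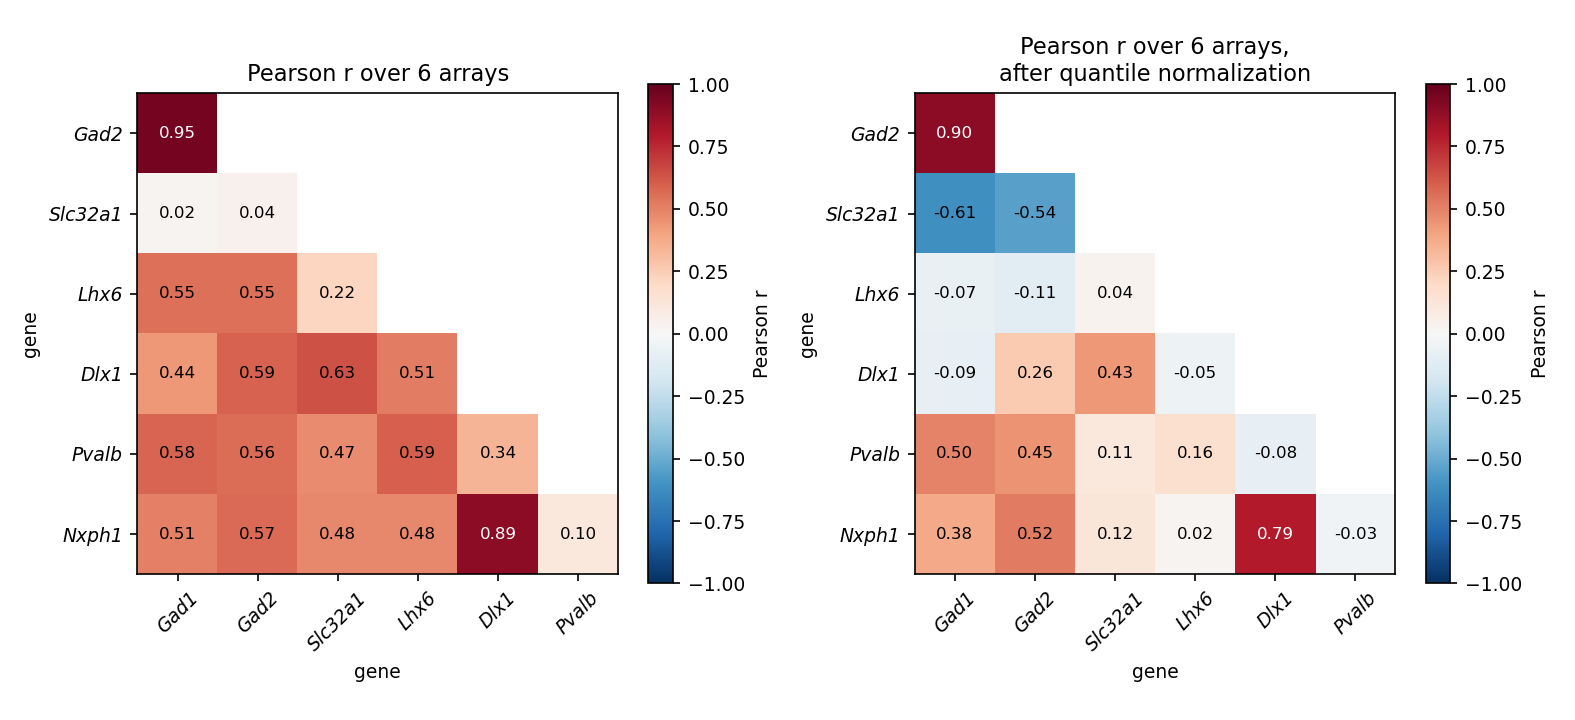
Pearson r over the 6 arrays for each of the 21 pairs, as deposited (left) and after quantile normalization (right), with the colour scale from -1 to 1. Gad1 with Gad2 (0.95 and 0.90) and Dlx1 with Nxph1 (0.89 and 0.79) are high in both, whereas Slc32a1 with Gad1 goes from 0.02 to -0.61.

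The 10 genes whose levels most resembled the mean of the members were not interneuron genes of the lists used here. Among 3066 other genes spanning at least 2 log2 units, the 10 highest Pearson coefficients with the centred member mean ran from 0.986 to 0.994 over 6 arrays. They belonged to Sema7a, a membrane-anchored semaphorin, Dnajc14, the transcription factor Gtf2i, the elongin subunit Eloa, Fbxo31, the phosphatase inhibitor Ppp1r8, Heatr5b, the amino acid transporter Slc7a8, Abhd2 and Wipf2. Abat and Btbd11, genes of the lists described below, came close to these 10, at 0.9785 and 0.9724. Like the member mean to which they were matched, all 10 were lowest on non-deprived array 2 and next lowest on non-deprived array 3, an order that the choice itself favours. Sema7a, for example, was at 8.67, 6.22 and 6.75 on the non-deprived arrays and at 8.20, 8.78 and 9.39 on the deprived arrays. Over all named genes, whatever their likeness, non-deprived arrays 2 and 3 were the 2 lowest of the 6 in 16.7%, and the part of this array-wide shift in the levels of Gad1 and Gad2 was not tested.

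Of the other genes of GABA metabolism, 9 of 11 listed were measured, Gad1, Gad2 and Slc32a1 included, and 8 of the 9 had a higher mean in the deprived group (median difference 0.82, all genes 0.05). None passed the adjusted threshold and 0 had an unadjusted p under 0.05. Without non-deprived arrays 2 and 3, 4 of 9 were higher and the median was -0.02. Abat, the transaminase that breaks GABA down, was at 9.55, 7.55 and 8.13 on the non-deprived and at 8.62, 9.54 and 9.54 on the deprived arrays. Non-deprived arrays 2 and 3 were the 2 lowest for it, as for Gad1, Gad2 and Slc6a11, 4 of the 9 (16.7% of all genes). Glul, which had the widest span of the list, and Aldh5a1 did not share this order. On non-deprived array 3 they were at 9.99 and 6.95, above their 9.69 and 6.90 on array 1. Slc6a11, a GABA transporter of the plasma membrane, was at 6.635, 5.635 and 5.08 against 6.44, 8.11 and 6.28, with its highest value on deprived array 2, where Slc32a1 was also highest.

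Interneuron transcription factors were measured at 15 of 22 listed genes, 8 with a higher and 7 with a lower mean in the deprived group (median difference 0.05, the same as all genes, and -0.12 with 4 higher after quantile normalization and -0.11 with 3 higher after median centring). Without non-deprived arrays 2 and 3, 8 of 15 were again higher (median 0.01). None passed, and 0 had an unadjusted p under 0.05. Sox6, which acts downstream of Lhx6 in this lineage, had the widest span. It was at 6.59, 6.08 and 4.67 on the non-deprived and at 6.09, 7.44 and 6.503 on the deprived arrays, lowest on non-deprived array 3, as were Dlx1 and Nxph1. Dlx5 was at 6.998, 6.14 and 6.485 against 5.97, 6.46 and 6.885. Deprived array 1 was the lowest for 7 of the 15, Dlx5 and Lhx6 included, and the highest for 0. The share of all genes lowest on that array was not counted.

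Markers of the somatostatin class were measured at 11 of 12 genes, Nxph1 included. In contrast to the members, 8 of the 11 had a lower mean in the deprived group over all 6 arrays (median difference -0.14). Without non-deprived arrays 2 and 3, 1 of 11 had a higher mean there (median -0.49), and the members also had a negative median (-0.38, 3 of 7 higher). None of the 11 passed, and 0 had an unadjusted p under 0.05. Sst, the peptide that defines the class, was at 11.36, 11.34 and 10.46 on the non-deprived and at 10.08, 11.59 and 11.18 on the deprived arrays. Deprived array 1 and non-deprived array 3, the lowest of Dlx1 and Nxph1, were the lowest for Sst as well. Npy was at 9.46, 9.12 and 9.70 against 7.14, 8.25 and 10.23, with its 2 lowest values on deprived arrays 1 and 2. Cort, the cortistatin precursor, went the other way from Gad1 and Gad2, with its highest value of 10.49 on non-deprived array 2 and its lowest of 6.38 on deprived array 1. Calb1 and Crhbp, in contrast, were lowest on non-deprived array 2, at 6.503 and 4.55, against 9.945 to 10.405 and 6.64 to 8.68 on the other arrays.

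Parvalbumin class markers were measured at 11 of 12 genes, Pvalb included, with 8 higher and 3 lower means in the deprived group (median difference 0.11). The higher means were 5 of 11 after quantile normalization (median -0.06), 3 of 11 after median centring (median -0.05) and 4 of 11 without non-deprived arrays 2 and 3 (median -0.32). None passed the adjusted threshold, and Tac1, the substance P precursor, had an unadjusted p under 0.05 and groups that did not overlap, lower in the deprived arrays, as 1.41% and 4.03% of all genes did. Tac1 was at 9.26, 7.97 and 9.30 on the non-deprived and at 3.20, 3.245 and 7.785 on the deprived arrays. Pvalb was highest on deprived array 3, the deprived array on which Tac1 was highest too, but was lowest on non-deprived array 2, where Tac1 was not low. Rbp4 was highest on non-deprived array 1, at 7.44, and lowest on non-deprived array 2, at 4.04.

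Interneuron synaptic and receptor genes were measured at 13 of 17, with 11 higher and 2 lower in the deprived group (median difference 0.33). None passed the adjusted threshold, and 4 had an unadjusted p under 0.05 (Nxph2, Kcnmb2, Cntnap4 and Btbd11, all higher, where 3.81% of all genes were), but without non-deprived arrays 2 and 3 only 6 of 13 were higher, with a median of -0.49. Nxph2 was above the 95th percentile of the receptor genes on 1 array, Kcnmb2 on 3, and Cntnap4 and Btbd11 on 4. Non-deprived arrays 2 and 3 were both below array 1 in 13 of the 13, and in 39.4% of all genes. Btbd11 was at 7.88, 3.31 and 3.38 on the non-deprived and at 7.32, 8.15 and 8.998 on the deprived arrays, with non-deprived arrays 2 and 3 lowest, as for Gad1 and Gad2. Synpr, a synaptic vesicle protein, was at 8.29, 7.98 and 5.02 against 5.62, 8.46 and 8.11, and Kcnip1, a potassium channel subunit, at 7.75, 7.36 and 5.01 against 6.67, 8.70 and 8.08. Both were lowest on non-deprived array 3 and next lowest on deprived array 1, the order of Dlx1 and Nxph1. These likenesses were chosen after the values were seen and carry no test. How many of all genes are lowest on non-deprived array 3 and deprived array 1 was not counted.

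**Figure D4:**
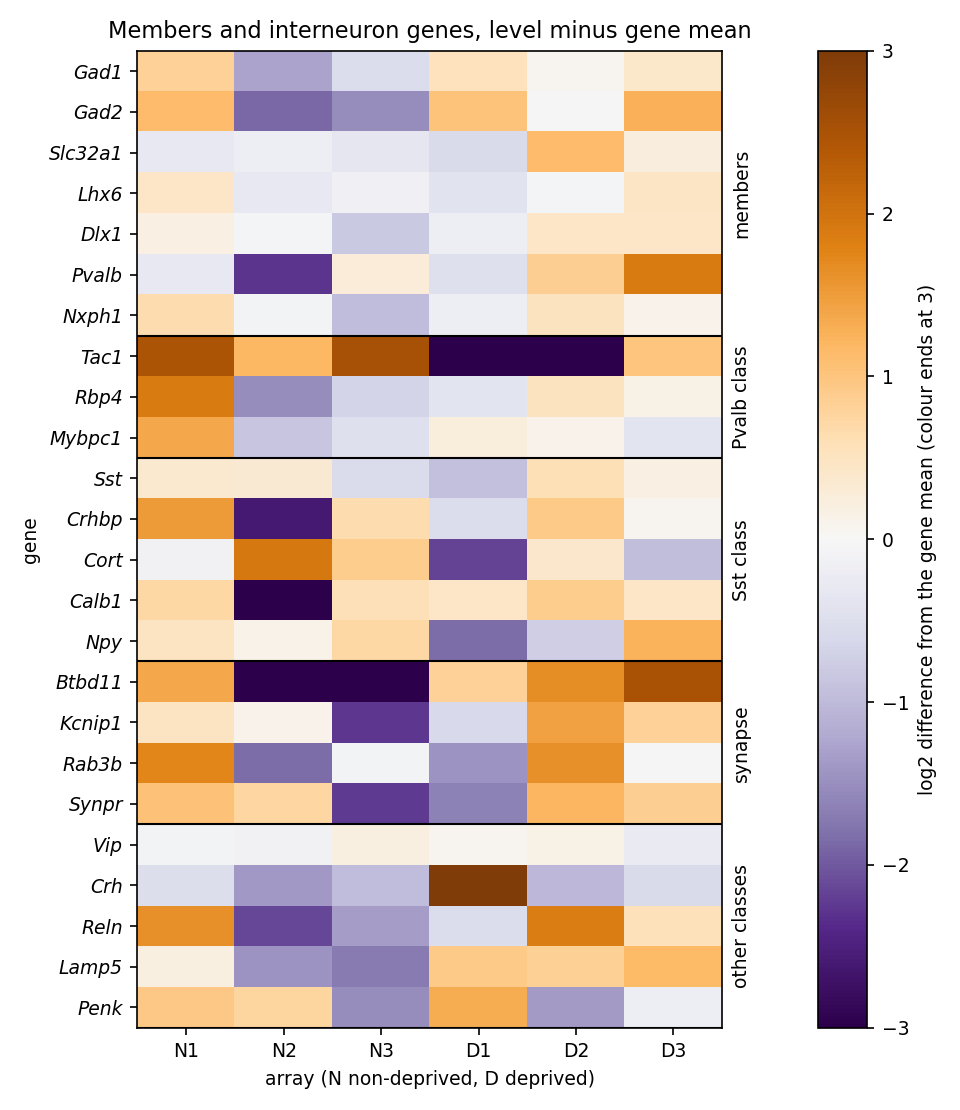
Level of the members and of the widest-ranging genes of 4 interneuron lists, with Sst and Vip, on each array (columns), as log2 difference from the mean of the gene over the 6 arrays. N2 and N3 are lowest for Gad1, Gad2, Rbp4, Mybpc1, Btbd11, Reln and Lamp5. N3 and D1 are lowest for Slc32a1, Dlx1, Nxph1, Sst, Synpr and Kcnip1. The other genes shown follow neither order, among them Lhx6, Pvalb, Rab3b, Cort, Npy, Tac1, Calb1, Crhbp, Crh and Penk.

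Markers of other interneuron classes were measured at 15 of 16 genes, 6 with higher and 9 with lower means in the deprived group (median difference -0.01). Without non-deprived arrays 2 and 3, 10 of 15 were higher (median 0.12). None passed the adjusted threshold. Lamp5 and Cxcl14 were higher in the deprived arrays with an unadjusted p under 0.05 and groups that did not overlap, as were 3.81% and 6.3% of all genes. Cxcl14 was above the 95th percentile of the receptor genes on 1 array only, and Lamp5 on 4. Vip, the peptide of a class from the caudal ganglionic eminence, was at 3.13 to 3.58 on all arrays, and Htr3a and Ndnf were at 4.16 to 4.55 and 4.15 to 4.54, below the 95th percentile of the receptor genes throughout. Reln was at 8.96, 5.18 and 5.99 on the non-deprived and at 6.80, 9.20 and 7.87 on the deprived arrays. Lamp5 was at 7.21, 5.58 and 5.32 against 7.95, 7.855 and 8.17. Both were low on non-deprived arrays 2 and 3, like Gad1 and Gad2.

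Some excitatory neuron markers were lowest on non-deprived arrays 2 and 3, as were Gad1 and Gad2. The layer 4 factor Rorb and Neurod1 were instead highest on non-deprived array 2, at 8.57 and 8.265. Of 18 measured excitatory neuron markers (20 listed), 13 had a higher mean in the deprived group, with a median difference of 0.37 (0.08 after quantile normalization, and 0.16 with 12 of 18 higher without non-deprived arrays 2 and 3). None passed the adjusted threshold, and 4 had an unadjusted p under 0.05, 3 higher and 1 lower (3.81% and 1.41% of all genes). The groups of 5 did not overlap, all higher in the deprived arrays, as in 6.3% of all genes (Slc17a7, Slc17a6, Tbr1, Cux1 and Cux2). Non-deprived arrays 2 and 3 were the 2 lowest of the 6 in 6 of the 18, those 5 and Neurod2. This held for 2 of the 7 members (Gad1 and Gad2) and for 16.7% of all genes. That non-deprived array 1 lay below every deprived array in those 5 follows from their choice as genes whose groups do not overlap. It did not in Gad1 and Gad2, nor in Neurod2, at 5.33 against 5.24 on deprived array 1. Slc17a6, the vesicular glutamate transporter VGLUT2, was at 6.004, 4.46 and 5.51 on the non-deprived and at 6.31, 7.69 and 6.98 on the deprived arrays, so that for it and for Slc17a7 non-deprived array 2 was lowest and array 3 next, as for Gad1 and Gad2. The median level of the whole list did not show this, at 6.06, 6.22 and 6.005 on the non-deprived and 6.82, 6.82 and 6.89 on the deprived arrays.

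Glial and vascular markers were mostly low. The median levels on the 6 arrays were 4.996 to 6.04 for astrocyte markers (9 of 10 measured), 5.28 to 5.70 for the oligodendrocyte lineage (11 of 12), 4.59 to 4.97 for microglia (10 of 10) and 4.55 to 4.73 for endothelial and mural cells (10 of 10). On all 6 arrays, 2, 2, 1 and 0 of these markers were above the 95th percentile of the receptor genes. They were Sox9 and Fgfr3, Olig1 and Olig2, and Cx3cr1, with Sox9 at 6.156 to 6.975 and Olig1 at 6.564 to 6.867. Gfap and Cldn5 were above it on 0 arrays. Their part in the levels of the members was not tested.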

How the data were processed

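Levels were measured on 6 arrays, 1 per sample, 3 per hemisphere group as the labels give them. The table deposited by the authors holds log2 values for 23331 transcript clusters, from 0.584 to 13.6. The scale was read from the values. How the background was corrected and the arrays normalized and summarized is not stated in the sources used here. Per the submitters' processing notes the build was mm9. Of the clusters, 14995 had 1 gene symbol in the platform annotation, 1019 had several and were not named. Through Entrez identifiers 14940 were found in RefSeq (GRCm38.p6), with 0 symbols updated. Where a gene had several clusters (135 genes) the one with the highest mean was used, which left 14859 genes. No detection measure was used. Precision is limited by the number of arrays (median SE of a difference 0.312).

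Groups were compared with limma 3.58.1 in R 4.3.3 (lmFit, eBayes with a variance trend, group as the sole term), two-sided, with Benjamini-Hochberg adjustment over all genes at 0.05. Since no label ties samples to animals, p-values reflect the spread between samples alone, which may be technical. Pairs of members were compared by Pearson r and Spearman rho with exact two-sided permutation over 720 pairings. The fit was tested on simulated data. The members and gene lists were chosen with earlier results of these data known. Named genes were the members, the 10 genes most like their mean, up to 4 widest-ranging genes per list, landmarks of cell types, and, chosen after their values were seen, genes listed for a small p or for a shared pattern. Alternatives were quantile normalization, median centring, the mean over clusters, no variance trend, filters on mean expression (its 25th percentile, its median), the replicate block, group means removed, each array left out, and non-deprived arrays 2 and 3 left out.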

Additional observations from a re-analysis of the deposited data

How the results depend on the processing

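No member passed the adjusted threshold under any of the 14 alternatives run. Leaving out each array in turn gave log2 differences of 0.1965 to 1.25 for Gad1, 0.94 to 2.45 for Gad2, 0.0975 to 0.9495 for Slc32a1, -0.23 to 0.21 for Lhx6, 0.17 to 0.67 for Dlx1, 0.76 to 2.13 for Pvalb and -0.13 to 0.67 for Nxph1. It gave 0 to 2 members at an unadjusted p of 0.05 (2, Gad1 and Gad2, without non-deprived array 1, where 12.5% of all genes did so against 5.22% with all arrays, and 1, Pvalb, without deprived array 1, against 4.54%). The groups of 0 to 3 members did not overlap: 3 without deprived array 1, as in 19.9% of all genes, and 2 without non-deprived array 1, as in 30.5%. Without non-deprived arrays 2 and 3 the sign turned for Gad1 (-0.482), Gad2 (-0.384) and Nxph1 (-0.495), and 2 members did not overlap, as in 45.9% of all genes. With 1 non-deprived array left, that array is assumed to vary like the others. The median Pearson r over the 21 pairs was 0.109 after quantile normalization, against 0.514, and 0.458 to 0.592 when each array was left out. The cause of these shifts was not tested. With the replicate number as a block, the differences were as in the unblocked fit, such as 1.503 for Gad2 (limma adjusted p = 0.862) and 1.53 for Pvalb (0.862), and no call changed. With the block the SE fell for Gad1, Gad2, Pvalb and Slc32a1, from 0.86 to 0.68 for Gad2. It rose for Lhx6, Dlx1 and Nxph1. Correlations of same-numbered arrays' deviations from their group means across genes were -0.0506, -0.0184 and -0.00334. With 3 arrays per group, these values cannot settle whether same-numbered arrays share an animal. Quantile normalization lowered the differences of Gad1 (0.33), Slc32a1 (0.16), Dlx1 (0.29) and Nxph1 (0.18) by over 1.5 times, as did median centring those of Dlx1 (0.30) and Nxph1 (0.125). Beyond the signs in the ranges above, no other setting turned the direction of a member.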

Other observations

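A few genes of the lists that are not described above were high on 1 array only. Crh, the corticotropin-releasing hormone precursor made by some interneurons, was at 8.77 on deprived array 1 and at 2.93 to 3.81 on the other 5 arrays. On the same array the astrocyte genes Aldh1l1, at 6.665 against 4.94 to 5.225, and Slc1a3, at 6.04 against 4.26 to 4.97, were highest, as were 5 of the 9 measured astrocyte markers, but Gfap (4.75) and S100b (4.19) were at their lowest there and Sox9 at its next lowest. Of the members, Lhx6 and Slc32a1 had their lowest values on it and Dlx1, Nxph1 and Pvalb their next lowest, while Gad1 and Gad2 were at 7.48 and 8.87. Cd68, a lysosomal protein of phagocytes, was at 9.92 on non-deprived array 2, where Gad1, Gad2 and Pvalb were lowest, and at 4.41 to 5.68 elsewhere. The median of the 10 microglia markers was 4.77 there and 4.59 to 4.97 elsewhere. Crh, Aldh1l1, Slc1a3 and Cd68 were picked with their values in view, and 1 array gives no spread.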
